A study of Mus musculus with 9 samples.

Results

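Glycerolipid synthesis builds phospholipids and triacylglycerol on a glycerol backbone, and lipid droplets store the triacylglycerol under a coat of proteins. Of the 54876 genes in the deposited table, 10 were chosen by symbol for their place in this pathway, and each symbol had 1 row. They are Gpam and Agpat2, which acylate glycerol 3-phosphate and lysophosphatidate, the phosphatidate phosphatases Lpin1 and Lpin2, the diacylglycerol acyltransferases Dgat1 and Dgat2, Pcyt2 of phosphatidylethanolamine synthesis, the lysophospholipid acyltransferases Lpcat1 and Lpcat3, and Plin2, a coat protein of lipid droplets. They were measured in MIN6, a mouse insulinoma line with C57BL/6 given as its strain, which serves as a model of pancreatic beta cells. Cells spent 24 h in low, standard or high arginine, at 0.1, 1 or 20 times the standard concentration, with 3 libraries per medium and 9 in all. All libraries come from this 1 tumour line, and the labels do not say whether the replicates were grown as independent cultures. A p-value here therefore reflects library-to-library spread alone, possibly only technical.

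In this pathway fatty acids are first activated to acyl-CoA and joined to glycerol 3-phosphate, giving lysophosphatidate and then phosphatidate. Lipins remove the phosphate to leave diacylglycerol, the branch point between triacylglycerol, made by Dgat1 and Dgat2, and phosphatidylcholine and phosphatidylethanolamine, made by the Kennedy pathway. Lysophospholipid acyltransferases then exchange the fatty acid tails of the phospholipids. In beta cells, surplus fatty acid is stored as triacylglycerol in droplets.

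The 10 genes did not move as a block. In low arginine the lipins, Pcyt2 and both lysophospholipid acyltransferases fell, to between 0.336 and 0.675 times the standard level, while Dgat2, Plin2 and Agpat2 rose, to between 1.46 and 1.76 times that level. Gpam and Dgat1 did not pass the test, which 62.2% of all tested genes passed in this comparison. High arginine changed 1 of the 10 in the test used, Lpcat1, where 0.138% of all tested genes were called higher. Lpcat1 was 1.34 times as high as in standard arginine, and its call was lost in 9 of 19 alternative fits.

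Levels are FPKM, read counts scaled by gene length and library size, which can be set side by side between genes. Changes were tested with limma on log2(FPKM + 1), and a gene was called at a Benjamini-Hochberg adjusted p under 0.05 over all 12300 genes tested. That scale understates the change of low genes such as these. Reads in genes came to 24835801 to 26300872 in the low, 21550637 to 24452040 in the standard and 23747593 to 24163731 in the high arginine libraries. The 10 genes had 139 to 3624 reads each per library, Agpat2 the fewest at 139 to 300. The 3 low arginine libraries stood apart on the first principal component of all tested genes, at -39.7 to -36.4 against 16.8 to 20.3 for the other 6. Of 12 beta cell markers 10 had a mean of at least 1 FPKM, but Slc2a2, the glucose transporter of mouse beta cells, stayed at 0.0331 FPKM or lower in each library. The 12 summed to 79124 to 80674 FPKM in low, 74240 to 82812 FPKM in standard and 75776 to 78281 FPKM in high arginine, mostly Ins2. Of the 11 tested, 4 were called higher and 4 lower in low arginine, where 30.3% and 31.9% of all tested genes were. Among them, the transcription factors Pdx1 and Nkx6-1 were 2.496 and 2.86 times as high as in standard. G6pc2 was 1.79 times lower. Ucn3 was 4.68 times lower but near the floor, at 0.103 to 0.264 FPKM and 4 to 11 reads per low arginine library. Only standard and high arginine libraries brought Ucn3 to the 1 FPKM needed for testing. The 5 adipocyte markers, of cells rich in these genes, summed to at most 0.119 FPKM in any library, with Lep and Retn at 0. The 8 stromal and 5 macrophage markers summed to at most 0.19 and 0.537 FPKM, with Acta2, Ptprc and Adgre1 at 0. Of 6 alpha cell markers 2 were above 1 FPKM. They summed to 260 to 341 FPKM in low, 891 to 992 FPKM in standard and 892 to 901 FPKM in high arginine, nearly all of it Ttr. The 3 delta and PP cell markers, mostly Sst, summed to 8718 to 11313 FPKM in low, 5434 to 6207 FPKM in standard and 5721 to 5913 FPKM in high arginine. The mitochondrial share of reads was 0.675 to 0.765% in low, 0.813 to 0.955% in standard and 0.889 to 1.01% in high arginine. The part of these shifts in the results below was not tested, and in bulk RNA fewer cells of a type and less RNA per cell cannot be told apart.

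RefSeq promoter windows, 250 bases before to 50 bases from the gene start, were found for 7 of the 10 genes in build GRCm38.p6. Shown are 4 of them: Lpin1, Lpcat3 and Lpcat1, which fell in low arginine, and Plin2, which rose. They lie at chr12:16610917-16611216 on the minus strand (Lpin1), chr6:124662854-124663153 on the plus strand (Lpcat3), chr13:73466981-73467280 on the plus strand (Lpcat1) and chr4:86670010-86670309 on the minus strand (Plin2). Sequences run 5′ to 3′, and capitals mark CCAAT, the box bound by NF-Y, or its reverse complement, and CACGTG, an E-box.
Lpin1: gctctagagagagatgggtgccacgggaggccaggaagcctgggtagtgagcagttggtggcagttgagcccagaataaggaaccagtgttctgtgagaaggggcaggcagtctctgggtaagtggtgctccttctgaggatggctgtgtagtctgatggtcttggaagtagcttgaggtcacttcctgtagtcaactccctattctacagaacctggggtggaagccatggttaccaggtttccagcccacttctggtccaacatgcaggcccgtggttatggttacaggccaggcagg
Lpcat3: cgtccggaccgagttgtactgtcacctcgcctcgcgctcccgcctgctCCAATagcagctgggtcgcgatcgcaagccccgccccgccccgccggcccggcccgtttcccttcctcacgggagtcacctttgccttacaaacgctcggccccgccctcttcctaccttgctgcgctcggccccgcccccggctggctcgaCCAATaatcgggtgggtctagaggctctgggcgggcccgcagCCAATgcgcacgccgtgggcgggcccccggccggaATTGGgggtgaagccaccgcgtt
Lpcat1: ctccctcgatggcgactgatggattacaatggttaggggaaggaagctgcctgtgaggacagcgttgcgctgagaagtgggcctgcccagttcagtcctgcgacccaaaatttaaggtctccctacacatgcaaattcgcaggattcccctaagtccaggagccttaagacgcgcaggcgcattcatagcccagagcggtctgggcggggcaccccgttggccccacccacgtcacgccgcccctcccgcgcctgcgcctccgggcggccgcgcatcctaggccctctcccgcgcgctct
Plin2: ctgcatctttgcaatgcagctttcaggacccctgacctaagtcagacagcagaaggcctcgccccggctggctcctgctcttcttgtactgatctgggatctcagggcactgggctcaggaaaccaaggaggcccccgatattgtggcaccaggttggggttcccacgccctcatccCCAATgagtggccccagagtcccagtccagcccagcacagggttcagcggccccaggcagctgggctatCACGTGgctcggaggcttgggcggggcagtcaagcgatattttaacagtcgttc

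Both strands were searched for 4 motifs over 10 windows of the 7 genes, since Lpin2 and Gpam had more than 1 window. CCAAT occurred at 4 places in the Lpcat3 window, 50 and 8 bases before the start among them, and at 1 place in Plin2. It also occurred at 3 places in 1 Lpin2 window and at 1 in a Gpam window. It was in 37.4% of all 32851 promoter windows. CACGTG began 4 bases before the Plin2 start and 9 bases before that of 1 Lpin2 window, against 7.15% of all windows. TCACNCCAC, the core of a sterol response element, was in none of the 10 windows and in 1.24% of all. TGATGNAA, the core of an amino acid response element, was in 1 window each of Gpam and Lpin2, against 3.97% of all. The Gpam window with matches, chr19:55127189-55127488, lies outside the Gpam coordinates given below. The Gpam window at 55099428 to 55099727, which meets the start in those coordinates, held no motif. All Lpin2 windows lie inside the Lpin2 coordinates given below. CACGTG was in chr17:71183282-71183581, and CCAAT and TGATGNAA were in chr17:71204404-71204703. The Lpin1, Lpcat1 and Agpat2 windows held none of the 4. No motif overlapped another in the windows shown. A match is a description of these letters and not of a bound factor.

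The comparison of low with standard arginine asks what a deficient supply changed. Of the 10 genes, 3 were called higher, where 30.3% of all tested genes were, and 5 lower, where 31.9% were. Together that is 8 of 10, in a contrast that called 62.2% of all tested genes, and the same 8 had an unadjusted p under 0.05, as did 65.7% of all. In 8 of the 10 the 3 low and 3 standard libraries did not overlap, against 65.4% of all tested genes. The count of higher genes was thus at the background share, and the other counts are read against a background that is itself high. Scaling to TPM moved the split of calls over all tested genes to 4843 higher and 3018 lower, against 3723 and 3923 in FPKM. The median log2 change was -0.16 over the 10 genes and 0.00 over all tested. A fall of at least 2-fold on the log2(FPKM + 1) scale was reached by Pcyt2, Lpin1 and Lpcat3, where 3.28% of all tested genes were called with such a fall. None of the 10 had a rise of that size, as 1.92% of all tested genes did.

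**Figure D1:**
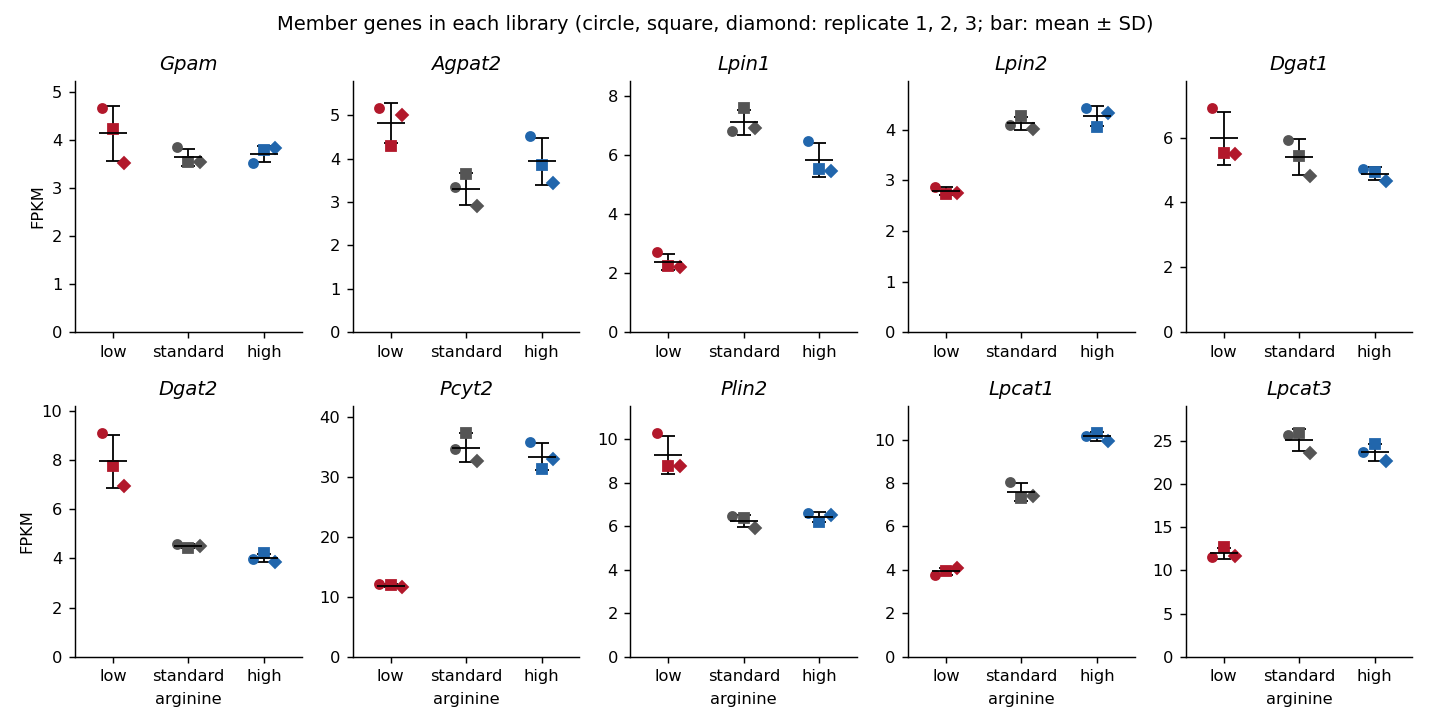
FPKM of the 10 genes in each library, by arginine medium from low to high, with replicates 1, 2 and 3 as circle, square and diamond and bars for mean ± SD (n = 3). Pcyt2, Lpin1, Lpin2, Lpcat1 and Lpcat3 lie lowest in low arginine, and Dgat2 and Plin2 highest. Agpat2 in low arginine lies above standard but overlaps high arginine. Lpcat1, Lpin1 and Dgat2 also separate high from standard arginine, and of these only Lpcat1 was called.

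At the entry to the pathway, Gpam, the mitochondrial glycerol 3-phosphate acyltransferase (chromosome 19, 55069734 to 55099451), had 4.66, 4.22 and 3.51 FPKM in low, 3.84, 3.54 and 3.53 FPKM in standard and 3.52, 3.78 and 3.82 FPKM in high arginine. The groups overlapped, and the log2 change in low arginine was 0.14 (95% interval -0.04 to 0.32, adjusted p = 0.161). Without low replicate 3, the lowest of its group, Gpam was called higher at 0.23 (adjusted p = 0.0226), as it was with TPM at 0.28 (adjusted p = 0.0291). Agpat2, the lysophosphatidate acyltransferase mutated in a form of human congenital lipodystrophy (chromosome 2, 26593057 to 26604417), had 5.17, 4.29 and 5.002 FPKM in low, 3.34, 3.65 and 2.90 FPKM in standard and 4.52, 3.86 and 3.44 FPKM in high arginine. Each low arginine library was above each standard one, a log2 change of 0.44 (SE 0.10, adjusted p = 0.00265). Agpat2 lies within Gm20532 on the other strand, which was at 0, and shares 64 bases with Egfl7 on that strand, at a mean of 0.976 FPKM.

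Lpin1 and Lpin2 encode lipins, which turn phosphatidate into diacylglycerol. Lpin1 (chromosome 12, 16535669 to 16610966) had 2.71, 2.25 and 2.22 FPKM in low, 6.83, 7.61 and 6.93 FPKM in standard and 6.50, 5.55 and 5.46 FPKM in high arginine. Its low arginine level was 2.98 times lower than standard, a log2 change of -1.26 (SE 0.08, adjusted p = 4.29e-07). Lpin2 (chromosome 17, 71182560 to 71249817) had 2.87, 2.73 and 2.75 FPKM in low, 4.10, 4.27 and 4.01 FPKM in standard and 4.43, 4.06 and 4.34 FPKM in high arginine. It fell less, by 0.44 on the log2 scale (SE 0.06, adjusted p = 7.39e-05), and no library overlapped between low and standard arginine. Lpin2 also lies within the noncoding gene Gm26561 on its own strand, at a mean of 0.003 FPKM.

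At the last step of triacylglycerol synthesis the enzymes Dgat1 and Dgat2 moved unequally. Dgat2 (chromosome 7, 99153658 to 99182719) had 9.12, 7.76 and 6.96 FPKM in low, 4.59, 4.44 and 4.49 FPKM in standard and 3.97, 4.22 and 3.86 FPKM in high arginine. It was 1.76 times as high in low as in standard arginine, a log2 change of 0.69 (SE 0.08, adjusted p = 3.27e-05), the highest of the 10 genes. Dgat1 (chromosome 15, 76502015 to 76511953) had 6.92, 5.53 and 5.48 FPKM in low, 5.94, 5.43 and 4.82 FPKM in standard and 5.04, 4.95 and 4.66 FPKM in high arginine. Its low and standard libraries overlapped, and the log2 change was 0.12 (95% interval -0.08 to 0.32, adjusted p = 0.256), though with TPM it was called higher at 0.25 (adjusted p = 0.0400). Plin2, which coats droplets and shields their triacylglycerol (chromosome 4, 86648386 to 86670060), had 10.3, 8.78 and 8.78 FPKM in low, 6.45, 6.37 and 5.91 FPKM in standard and 6.62, 6.18 and 6.51 FPKM in high arginine. All 3 low arginine libraries were above all standard ones, a log2 change of 0.50 (SE 0.07, adjusted p = 9.74e-05).

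On the phospholipid side, Pcyt2, which makes CDP-ethanolamine and limits that branch of the Kennedy pathway (chromosome 11, 120610087 to 120617936), had 12.1, 11.9 and 11.6 FPKM in low, 34.7, 37.4 and 32.6 FPKM in standard and 35.8, 31.4 and 32.9 FPKM in high arginine. Its low arginine level was 2.94 times lower than standard. On the log2(FPKM + 1) scale that was the largest fall of the 10 genes, -1.48 (SE 0.07, adjusted p = 4.51e-08), at rank 121 of 12300 from the lowest change. Lpcat3, which places polyunsaturated tails in phosphatidylcholine (chromosome 6, 124663027 to 124704418), had 11.5, 12.7 and 11.7 FPKM in low, 25.6, 26.0 and 23.7 FPKM in standard and 23.8, 24.6 and 22.6 FPKM in high arginine. Low and standard libraries lay far apart, with a log2 change of -1.01 (SE 0.06, adjusted p = 2.72e-07). Lpcat3 shares 334 bases with Emg1 on the other strand, which averaged 11.2 FPKM in both low and standard arginine. Lpcat1, known from lung surfactant for placing saturated tails in phosphatidylcholine (chromosome 13, 73467197 to 73516422), had 3.76, 3.94 and 4.09 FPKM in low, 8.06, 7.31 and 7.40 FPKM in standard and 10.2, 10.3 and 9.94 FPKM in high arginine. Its fall in low arginine was 0.80 on the log2 scale (SE 0.06, adjusted p = 8.23e-07), and no 2 groups overlapped.

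**Figure D2:**
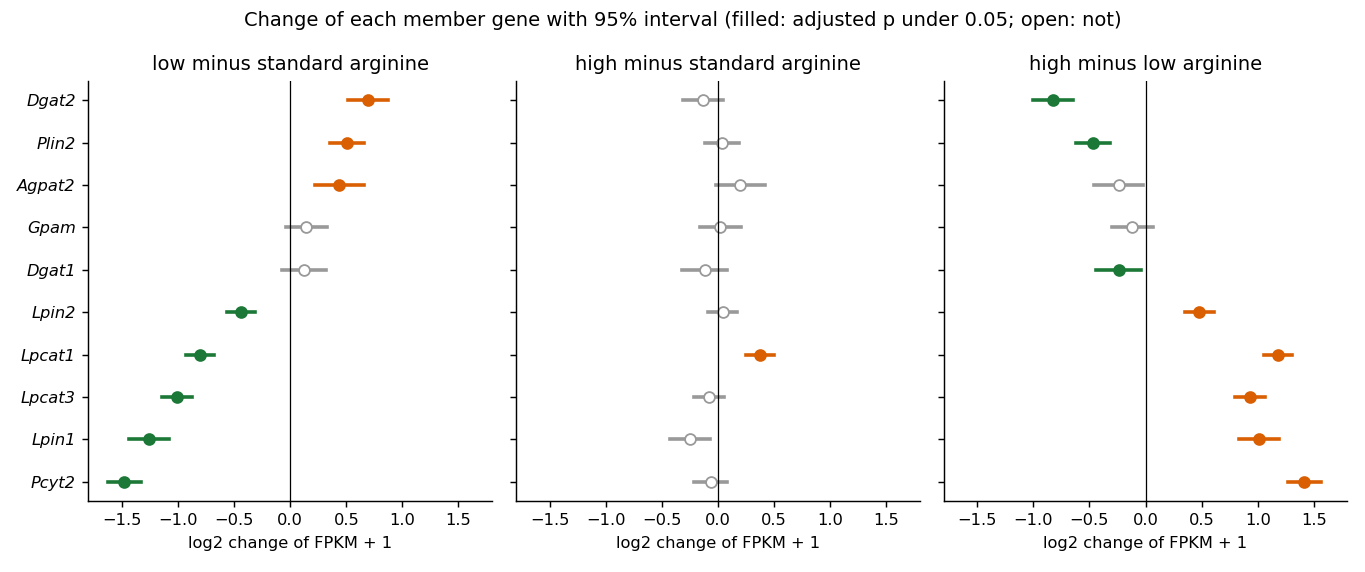
Log2 change of FPKM + 1 for each of the 10 genes (x axis) in 3 comparisons, with 95% intervals. Filled points passed an adjusted p under 0.05, orange for higher and green for lower, and open grey points did not. In low minus standard arginine 3 genes are orange and 5 green, and between high and standard arginine only Lpcat1 is filled.

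The comparison of high with standard arginine asks what an excess changed, and it shares its standard libraries with the comparison above. Of the 10 genes 1 was called higher, Lpcat1, where 0.138% of all tested genes were. None of the 10 was called lower in limma, where 0.171% were, and 2 had an unadjusted p under 0.05, against 14.3% of all tested genes. No member moved by 2-fold, as 0.00813% of all tested genes did upward. Weighting the libraries called 1 lower, Lpin1, where that fit called 713 of all tested genes higher and 610 lower, against 17 and 21 in the fit without weights. Voom called none of the 10 lower, with 40 higher and 34 lower over all. Lpcat1 averaged 10.1 ± 0.193 FPKM in high and 7.59 ± 0.409 FPKM in standard arginine (SD, n = 3 each), a log2 change of 0.38 (SE 0.06, adjusted p = 0.0306). That call rested on most single libraries. It was lost without standard replicate 1 or 2, high replicate 1, 2 or 3, or low replicate 2 or 3, with an adjusted p of 0.0566 to 0.157, while the change itself stayed at 0.35 to 0.42. Leaving out a low arginine library alters the variance estimate but not this fold change.

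Lpin1 averaged 5.84 ± 0.576 FPKM in high and 7.12 ± 0.423 FPKM in standard arginine (SD, n = 3 each). Those libraries did not overlap, but the log2 change of -0.25 did not pass (SE 0.08, adjusted p = 0.212). Dgat2 libraries did not overlap either, at 4.02 ± 0.181 FPKM in high and 4.51 ± 0.0753 FPKM in standard arginine, with a log2 change of -0.13 (adjusted p = 0.478). So 3 of the 10 genes had groups that did not overlap, against 18.5% of all tested genes. For the 9 genes that were not called, the log2 changes ran from -0.25 to 0.20, and their 95% intervals lay within -0.43 to 0.42.

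Over the 3 media, Lpcat1, Dgat2 and Lpin1 each separated all groups, as 10.9% of all tested genes did. Lpcat1 was lowest in low and highest in high arginine, an order without overlap found in 3.48% of tested genes. Dgat2 had the opposite order, low above standard above high, found in 2.37%. Lpin1 was lowest in low, highest in standard and between them in high arginine, and 5.05% of tested genes had their highest or lowest level in standard arginine with no overlap.

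The comparison of high with low arginine also tests whether the responses to excess and deficit differed. Here 5 of the 10 genes were called higher, where 32.3% of all tested genes were, and 3 lower, where 29.2% were, or 8 of 10 where 61.5% of all were called. At least 2-fold higher were 3, against 3.41% of all tested genes, and 0 were 2-fold lower. Groups did not overlap in 8 of the 10, against 68.4%. With TPM the calls over all tested genes were 3094 higher and 4735 lower, against 3967 and 3594 in FPKM. The log2 changes were 1.42 for Pcyt2, 1.18 for Lpcat1, 1.01 for Lpin1, 0.93 for Lpcat3 and 0.48 for Lpin2, with adjusted p-values of 5.70e-08 to 3.81e-05 in limma. The 3 lower genes were Dgat2 at -0.83, Plin2 at -0.47 and Dgat1 at -0.24 (adjusted p = 8.94e-06, 0.000169 and 0.0376). Dgat1 lost its call without low replicate 1 or any 1 of the high replicates, with an adjusted p of 0.0556 to 0.138, and without a filter on low values (adjusted p = 0.102). Agpat2 was at -0.24 and missed the threshold (adjusted p = 0.0537). It passed in 6 of 18 alternative fits, with a lowest adjusted p of 0.00929. Among these were TPM and a replicate block (adjusted p = 0.0433 with the block). It also passed without low replicate 2, standard replicate 3 or high replicate 1 (adjusted p of 0.0174 to 0.0434). Gpam was at -0.12 (adjusted p = 0.236) and was called in 2 of 18 alternative fits. These were TPM and the fit without low replicate 3, where it was at -0.21 (adjusted p = 0.035).

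The order of the levels changed with the medium. In standard arginine Pcyt2 led at 34.9 ± 2.40 FPKM, then Lpcat3 at 25.1 ± 1.25 FPKM, then Lpcat1 at 7.59 FPKM and Lpin1 at 7.12 FPKM, whose libraries overlapped (SD, n = 3 each). Plin2 and Dgat1 overlapped too, as did Gpam and Agpat2 at the bottom, at 3.64 and 3.30 FPKM. In low arginine Lpcat3 and Pcyt2 overlapped at the top, at 12.0 ± 0.621 and 11.9 ± 0.243 FPKM, and Plin2 and Dgat2 came next at 9.29 ± 0.880 and 7.95 ± 1.09 FPKM, overlapping as well. Lpin1 had become the lowest of the 10, at 2.39 ± 0.274 FPKM. In high arginine the order at the top was that of standard arginine, and Lpcat1 at 10.1 FPKM stood clear of Plin2 at 6.44 FPKM below it.

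**Figure D3:**
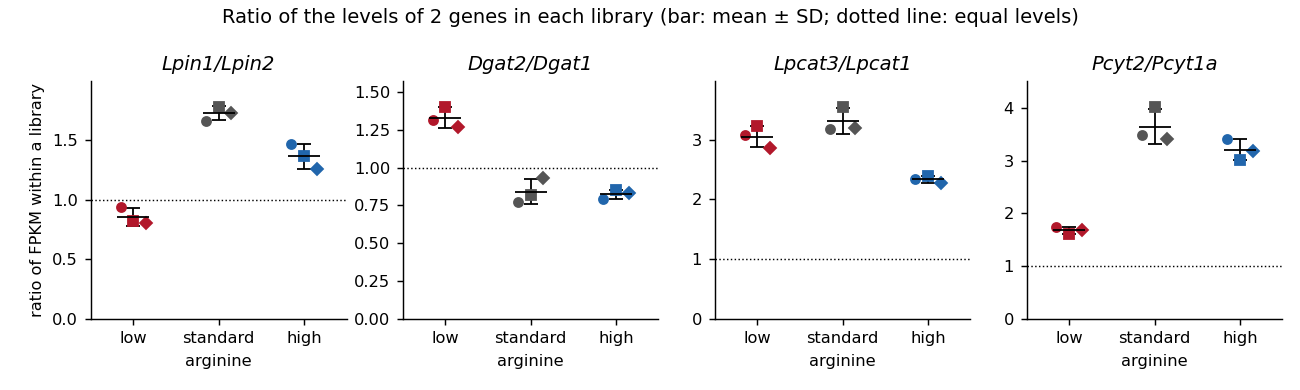
Ratio of the FPKM of 2 genes within each library (y axis), by arginine medium from low to high, with replicates 1, 2 and 3 as circle, square and diamond and bars for mean ± SD (n = 3). The dotted line marks equal levels, which Lpin1/Lpin2 and Dgat2/Dgat1 cross between low and standard arginine.

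Ratios within a library do not depend on how libraries were scaled, so related genes were also set against each other this way. Lpin1/Lpin2 was 0.857 ± 0.0741 in low and 1.73 ± 0.059 in standard arginine (SD, n = 3 each), so the more abundant lipin was Lpin2 in low and Lpin1 in standard arginine. In high arginine it was 1.36 ± 0.104, between them and clear of both. Dgat2/Dgat1 was 1.33 ± 0.0685 in low and 0.841 ± 0.0816 in standard arginine, with Dgat1 the more abundant in standard arginine, and 0.823 ± 0.0317 in high arginine, which overlapped standard. Lpcat3/Lpcat1 was 3.05 ± 0.182 in low and 3.31 ± 0.210 in standard arginine (exact permutation p = 0.3), which overlapped. In high arginine it was 2.33 ± 0.0533, below every library of the other groups. Pcyt2 against Pcyt1a, its counterpart for choline, was 1.68 ± 0.0699 in low and 3.64 ± 0.335 in standard arginine. For 6 such pairs 18 exact permutation tests were run, and each pair of groups that did not overlap gave p = 0.1, the smallest that 3 against 3 allows, or 0.129 adjusted over the 18.

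The 10 genes are not the only ones for their reactions, so the FPKM of known enzymes of each step was summed, as a description with no test. The glycerol 3-phosphate acyltransferases summed to 22.6 ± 1.65 FPKM in low against 29.7 ± 1.29 FPKM in standard arginine (SD, n = 3 each), of which Gpam held 18.2% in low and 12.2% in standard. Gpat4, the enzyme of the endoplasmic reticulum, held most of the rest. Among 5 lysophosphatidate acyltransferases, Agpat2 held 6.66% of the sum in low and 3.70% in standard arginine, and the sum was 72.3 ± 1.64 against 88.9 ± 6.05 FPKM. The 3 lipins summed to 6.01 ± 0.423 FPKM in low against 12.8 ± 0.481 FPKM in standard arginine. Dgat1 and Dgat2 together came to 13.9 ± 1.88 FPKM in low against 9.90 ± 0.612 FPKM in standard arginine. The lysophosphatidylcholine acyltransferases summed to 27.5 ± 0.684 FPKM in low against 50.5 ± 2.33 FPKM in standard arginine. In each of these sums low and standard libraries did not overlap, in FPKM or in TPM. In FPKM the first and second sums were 0.761 and 0.813 times standard in low arginine, that of the lipins 0.47 times, and that of the diacylglycerol acyltransferases 1.41 times. In TPM the same 4 sums were 0.830, 0.888, 0.513 and 1.535 times standard. In high arginine the lipin and diacylglycerol acyltransferase sums, at 0.891 and 0.899 times standard in FPKM, did not overlap standard either. The other sums given here did overlap it.

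Beyond the 10, a list of 68 other genes of glycerolipid synthesis, remodelling, droplets and lipolysis had 51 tested members, and every log2 change given for these genes and for the regulators passed limma at an adjusted p under 0.05. In low arginine 12 of the 51 were called higher and 26 lower, with a median log2 change of -0.18, beside the 30.3% and 31.9% of all genes and their median of 0.00. High arginine gave 0 calls among the 51 against standard in limma, where 0.309% of all tested genes were called, with 13 at an unadjusted p under 0.05, against 14.3% of all. Voom called 1 of the 51 lower, with 34 lower over all tested genes. Weighting the libraries called 2 higher and 5 lower of the 51, with 713 and 610 over all. In high against low arginine 24 of the 51 were called higher and 11 lower, where 32.3% and 29.2% of all tested genes were.

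**Figure D4:**
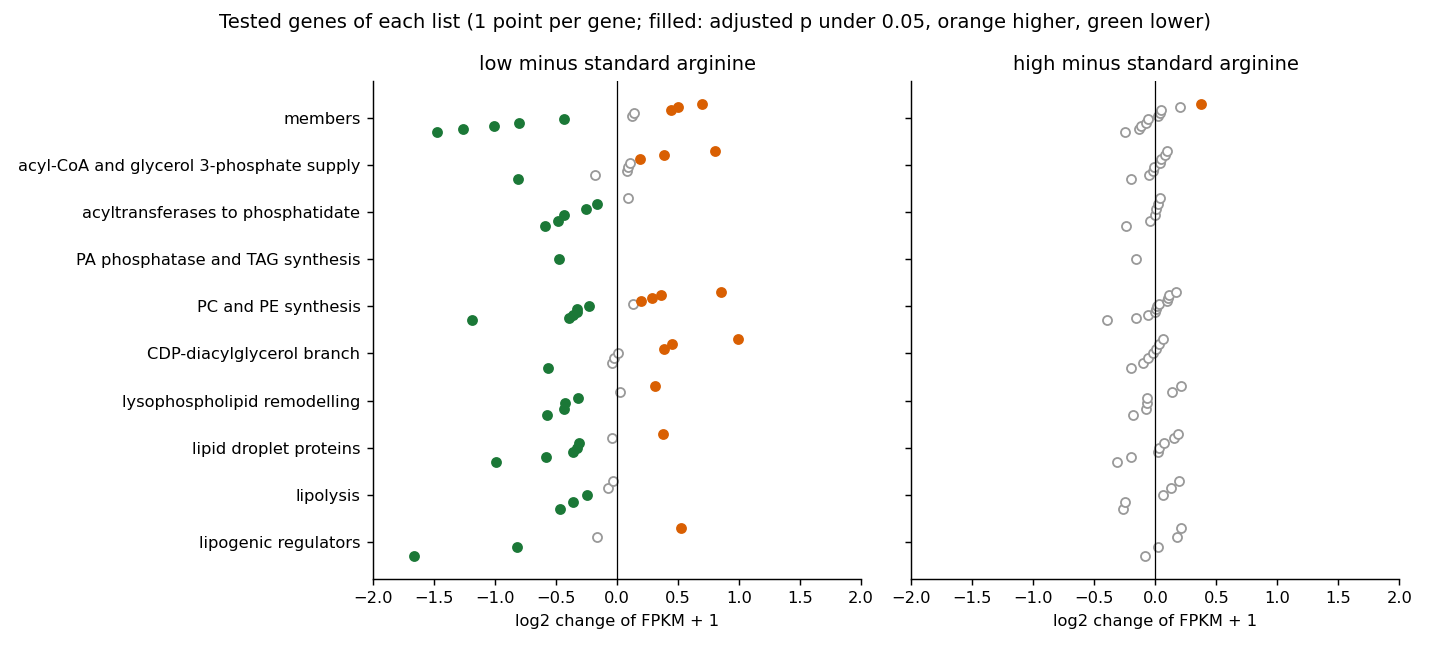
Log2 change of FPKM + 1 (x axis) in low minus standard and high minus standard arginine for each tested gene of the 10 members and of 9 further lists (rows, 1 point per gene). Filled points passed an adjusted p under 0.05, orange for higher and green for lower. In low arginine each of the 10 rows holds filled points, and in high arginine only 1 member, Lpcat1, does. PC, PE, PA and TAG stand for phosphatidylcholine, phosphatidylethanolamine, phosphatidate and triacylglycerol.

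Upstream, 3 of 8 genes of acyl-CoA and glycerol 3-phosphate supply rose in low arginine and 1 fell. Beside this and each list count below, 30.3% of all tested genes were called higher and 31.9% lower. Gpd1, which makes glycerol 3-phosphate, had 6.57, 5.84 and 5.21 FPKM in low against 2.99, 2.72 and 3.05 FPKM in standard arginine, a log2 change of 0.81. Acsl1, an acyl-CoA synthetase, rose by 0.39, while Acsl5, another, was at -0.81. Acsl5 is uncertain, since Zdhhc6 on the other strand overlaps 26430 bases of it. Of 6 tested acyltransferases that lead to phosphatidate 5 fell and 0 rose, with Agpat3 at -0.59 and Gpat4 at -0.49. Lpin3, the remaining lipin, averaged 0.836 ± 0.0921 FPKM in low against 1.55 ± 0.196 FPKM in standard arginine (SD, n = 3 each), a log2 change of -0.47. It passed the filter of 1 FPKM only through standard and high arginine libraries.

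Of 11 tested genes of phosphatidylcholine and phosphatidylethanolamine synthesis 4 rose and 6 fell in low arginine. Over all tested genes, 30.3% were called higher and 31.9% lower. Pcyt1b and Pcyt1a encode the enzymes that make CDP-choline. Pcyt1b, with 0.832, 0.752 and 0.742 FPKM in low against 2.87, 3.21 and 3.06 FPKM in standard arginine, was at -1.19, and Pcyt1a at -0.39. Only standard and high arginine libraries brought Pcyt1b past the filter of 1 FPKM. Cept1 and Chpt1, phosphotransferases of the last step, rose by 0.85 and 0.36. Cept1 had 11.2, 13.3 and 12.5 FPKM in low against 6.09, 6.47 and 6.55 FPKM in standard arginine. It shares 5 bases with Dram2 on the other strand. On the CDP-diacylglycerol branch, which leads to phosphatidylinositol and cardiolipin, 3 of 7 rose and 1 fell. Crls1, the cardiolipin synthase, had 19.2, 22.1 and 22.5 FPKM in low against 9.75, 9.73 and 10.98 FPKM in standard arginine, a log2 change of 0.99. Pgs1, which acts before it, rose by 0.45, and Cds1, a synthase of CDP-diacylglycerol, was at -0.57. Of 6 lysophospholipid remodelling genes 4 fell and 1 rose. Lpcat4 was at -0.58 and Mboat1 at -0.44, and Taz, which encodes the cardiolipin remodelling enzyme tafazzin and overlaps Dnase1l1, rose by 0.31.

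Among 7 tested lipid droplet genes 1 rose and 5 fell in low arginine, where 30.3% of all tested genes were called higher and 31.9% lower. Hilpda, a droplet protein named for its induction by hypoxia, had 1.10, 1.09 and 1.90 FPKM in low against 3.51, 3.94 and 3.47 FPKM in standard arginine, a log2 change of -0.99. Bscl2, which encodes the droplet assembly protein seipin and overlaps Gng3, was at -0.59, and Ldah, a droplet hydrolase, rose by 0.38. Of 5 lipolysis genes 3 fell and 0 rose, with Lipe, hormone-sensitive lipase, at -0.47 and Abhd5, the activator of adipose triglyceride lipase, at -0.36. Of 4 tested regulators of lipid synthesis 1 rose and 2 fell. Srebf1, which encodes SREBP1, the activator of many lipogenic genes, had 18.3, 18.8 and 18.4 FPKM in low against 63.1, 61.7 and 57.2 FPKM in standard arginine, a log2 change of -1.66. Nr1h2, which encodes LXR-beta, was at -0.82, and Mlxipl, which encodes the glucose-responsive factor ChREBP, rose by 0.53. Srebf1 shares 109 bases with Rai1 on the other strand.

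In high against low arginine, a contrast that shares its low arginine libraries with the one above, calls by list were 1 higher and 3 lower for supply, 4 and 0 for acyltransferases, 1 and 0 for phosphatidate phosphatase, and 6 and 4 for phosphatidylcholine and phosphatidylethanolamine synthesis. They were 1 and 3 for the CDP-diacylglycerol branch, 4 and 1 for remodelling, 4 and 0 for droplet proteins, 3 and 0 for lipolysis and 3 and 1 for regulators, where 32.3% of all tested genes were higher and 29.2% lower. Among lower genes, Gpd1 was at -1.01 and Acsl1 at -0.41 in supply. Crls1 was at -0.93 and Cdipt, the phosphatidylinositol synthase, at -0.58, with Cept1 at -0.68, Chpt1 at -0.42 and Taz at -0.50. Cdipt averaged 38.9 ± 2.71 FPKM in high and 58.7 ± 2.40 FPKM in low arginine (SD, n = 3 each). Higher in the acyltransferase and lipin steps were Agpat3 at 0.59, Gpat4 at 0.51 and Lpin3 at 0.32, and Acsl5 before them at 0.91. In the phospholipid lists Pcyt1b was at 0.79, Pcyt1a at 0.50, Cds1 at 0.47, Mboat1 at 0.57 and Lpgat1, an acyltransferase of lysophospholipids, at 0.63. Bscl2 and Hilpda of the droplet were at 0.74 and 0.67, and Abhd5 and Pnpla2, adipose triglyceride lipase, at 0.49 and 0.31. Of the regulators, Srebf1 was at 1.68, Nr1h2 at 0.74 and Mlxipl at -0.32.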

How the data were processed

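RNA libraries of MIN6 cells were made from total RNA with a directional kit, per the labels' protocols. The authors deposited FPKM, 1 column per library, with the gene length behind each value, per the file headers. CASAVA 1.8, HISAT2 2.0.5 and featureCounts 1.5.0-p3 are listed, per the submitters' processing notes. Strand handling during counting is not stated there, so genes that overlap the 10 genes on the other strand are named beside their values. For list genes named for the largest changes, only overlapping genes with a mean of at least 1 FPKM are named. Cell type markers and other genes given with values were not checked for overlap. The notes name mm9, but of 54409 gene IDs also found in GENCODE M21, 98.33% have identical GRCm38 positions, so coordinates are GRCm38. This holds for 9 of the 10 genes; for Gpam the file's own coordinates are given.

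Multiplied by gene length, 100% of FPKM above 0 were whole multiples of 1 read, within 0.01 reads, so reads were rebuilt for depth and for voom weights alone. The FPKM carry the authors' library scaling: the library size behind them was 0.962 to 1.08 times the rebuilt reads. It was 1.05 to 1.08 times in low, 0.962 to 1.02 in standard and 0.969 to 0.994 in high arginine. The low arginine libraries thus lay above all others, and what sets this was not tested.

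Genes were kept where 3 or more libraries reached an FPKM of 1, and log2(FPKM + 1) was fitted with limma 3.58.1 in R 4.3.3 over all 9 libraries, with medium as the only term, 6 residual degrees of freedom and a variance trend. P-values are two-sided and Benjamini-Hochberg adjusted over the 12300 genes. Of the 68 other pathway genes 51 passed this filter, as did 4 of 6 regulators and all 10 members. Lpin3, Pcyt1b, Lipe and Ucn3 passed it only through standard and high arginine libraries. Their lower level in low arginine is therefore not independent of the filter. The procedure was tested on simulated data. All replicate pairs differed beyond sampling noise (chi-square over degrees of freedom 2.59 to 12.6). Unused per-sample columns numbered 0.

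The members and lists were chosen with earlier results of these data known. All 10 members are named, and of each list up to 2 called genes with the largest rise and 2 with the largest fall per comparison. Gpd1l and Cds2, which were not called in low against standard arginine, were added beside Gpd1 and Cds1. Alternatives were another pseudocount, other filters, TPM, quantile normalization, only the compared groups, no variance trend, array weights, voom weights, a replicate block, a 2-fold threshold and leaving out each library.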

Additional observations from a re-analysis of the deposited data

How the results depend on the processing

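Among single member values under the alternatives, 535 kept their side of the threshold, 14 lost and 12 gained a call, and 0 changed sign with a call. In low against standard arginine 0 calls were lost. TPM raised the median of all tested genes to 0.12 in low minus standard arginine and lowered it to -0.10 in high minus low. With TPM 5 members were called higher in low against standard arginine, Gpam and Dgat1 joining at 0.28 and 0.25, and in high against low arginine 5 members and 18 of the wider list were called lower. Requiring a mean FPKM of 5, with fewer genes tested, left 6 of the wider list higher in low arginine and 6 lower in high against low arginine, and moved the members' median to -0.80 and 0.93 there, since Gpam, Agpat2 and Lpin2 were then untested.

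A 2-fold threshold left 0 members higher and 3 lower in low arginine, and 0 higher and 1 lower of the wider list, Pcyt1b. In high against low arginine it left 3 and 0 members and 0 and 1 of the wider list. In high against standard arginine Lpcat1 was not called with a 2-fold threshold, without a filter on low values (adjusted p = 0.0716) or with only the groups compared (adjusted p = 0.0783), so 0 members were called higher. Array weights called 1 member lower there, and 2 higher and 5 lower of the wider list, with 713 higher and 610 lower over all tested genes. Voom weights called 1 lower of the wider list, with 40 and 34 over all, against 17 and 21 in the reported fit. The cause was not tested.

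Leaving out 1 library gave 3 to 4 members higher and 5 to 5 lower in low arginine, 0 to 1 higher and 0 to 0 lower in high against standard, and 5 to 5 higher and 2 to 4 lower in high against low arginine. The wider list ranged over 10 to 12 higher and 23 to 26 lower, 0 to 0 and 0 to 0, and 22 to 26 and 11 to 13. Replicate numbers were not used to pair samples in the reported fit. Of 9 same-number pairs, 6 had a correlation of deviations over 0.1, with a range of -0.04 to 0.24 over all 9. Whether samples of the same number share an effect was not tested. With the replicate block the members counted 3 higher and 5 lower, 1 and 0, and 5 and 4. The fewest reads behind a member, 139, limit Agpat2 most.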

Other observations

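Plin2 was the only perilipin with a mean of at least 1 FPKM. Its share of the summed perilipin FPKM was 99.2% with low, 96.9% with standard and 97.7% with high arginine. Plin1, the perilipin of fat cells, was at 0 in 7 of 9 libraries, and Plin3, Plin4 and Plin5 reached at most 0.14, 0.0447 and 0.139 FPKM. Other genes known from fat cell droplets were likewise low: Cidec was at 0 in all 9 libraries, and G0s2, an inhibitor of adipose triglyceride lipase, reached at most 0.394 FPKM. Mgll, the monoacylglycerol lipase, was at 0 in 6 of 9 libraries, and Abhd6, which also cleaves monoacylglycerol, averaged 16.6 ± 1.62 FPKM with low and 17.5 ± 0.440 FPKM with standard arginine (SD, n = 3 each). Lpcat2 was at 0 in all 9 libraries.

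Within low arginine, replicate 1 had the highest value of its group in 8 of the 10 genes, Lpcat1 and Lpcat3 being the others. Over all 12300 tested genes it was the highest in 36.3%.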
